A study of Mus musculus with 5 samples.

Results

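The SR proteins are a family of splicing factors, and the genes examined here are the 10 members Srsf1, Srsf2, Srsf3, Srsf4, Srsf5, Srsf6, Srsf7, Srsf9, Srsf10 and Srsf11. Their RNA polymerase II (Pol II) occupancy was read from CUT&Tag, in which an antibody bound on chromatin brings in a transposase that cuts and tags the neighbouring DNA. A peak was counted as belonging to a member when its midpoint fell inside the gene or in the 3 kb before it. By this rule the family held 30 of 56615 merged peaks, and all 10 genes were among the 12876 genes with a peak. The nuclei of every library were those of splenic regulatory T (Treg) cells, sorted as CD3+CD4+ cells carrying the Foxp3-linked yellow fluorescent protein, of 8-week-old C57BL/6 mice. The study used both sexes in general, and its methods do not give the sex of the mice for these libraries. All mice, controls included, had received IL-2c, 1 µg IL-2 bound to 5 µg anti-IL-2 antibody, which makes Treg cells multiply, for 3 days and were killed 48 h later. Control mice (Ctrl, Foxp3Cre Setd2 flox/+) carried the Cre recombinase and 1 floxed Setd2 allele, and knockout mice (KO, Foxp3Cre Setd2 flox/flox) carried the same Cre with both alleles floxed. Cre was driven by Foxp3, the lineage factor of Treg cells. There were 2 libraries of 80000 nuclei per genotype, and the study pooled the cells of 2 mice before sorting. The study counted each library as a biological replicate. The sources do not say if the libraries of a genotype came from separate mice, so the p-values below measure the spread between libraries, which may be technical.

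SR proteins bind short enhancer sequences in exons through an RNA recognition motif, and their tail of arginine and serine repeats recruits the spliceosome to nearby splice sites. Many SR genes restrain their own output: the protein favours a splice form of its own transcript with an early stop codon, often by including a so-called poison exon, and nonsense-mediated decay removes that transcript. Setd2 trimethylates lysine 36 of histone H3 while travelling with elongating Pol II, and the mark is known to bring splicing regulators to chromatin through reader proteins. The comparison therefore asks whether Pol II on the genes of the splicing machinery differs between Treg cells with and without Setd2.

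Both libraries numbered 1 were deeper than those numbered 2, with total counts from 4489646 to 13351007, a ratio of 2.97. Counts were divided by size factors of 1.39 (Ctrl 1), 0.726 (Ctrl 2), 1.68 (KO 1) and 0.587 (KO 2), and such values are called normalized counts. Peaks lay on all 8 Treg and T cell markers examined, Foxp3 and Il2ra included, with summed normalized counts from 27130 to 33190 per library. No peak lay on any of the 5 CD8 T cell and natural killer cell markers. Of the B cell genes Cd79a held 88.4 and 81.3 normalized counts in Ctrl against 67.7 and 120.9 in KO, and Cd79b held 24.4 and 35.8 in Ctrl against 21.4 and 15.3 in KO. Among the myeloid markers 3 of 6 had a peak, with Lyz2, Itgam and Csf1r without one, and sums ranged from 495.3 to 594.4. Most of these counts lay on Spi1, with 411.2 and 446.4 in Ctrl against 430.1 and 461.6 in KO. Cd14 held 70.4 and 117.1 in Ctrl against 41.6 and 86.9 in KO (log2 fold change -0.58 ± 0.44, SE). Cebpa held 13.7 and 15.2 in Ctrl against 25.55 and 45.98 in KO (1.285 ± 0.66). Its KO libraries lay above Ctrl without overlap, as at 15.2% of all genes. Among the erythroid markers 3 of 5 had a peak, including Tfrc, which activated T cells also express, and sums ranged from 499.0 to 624.4. The targeted gene Setd2 held 524.7 and 512.5 normalized counts in Ctrl and 458.1 and 560.3 in KO (log2 fold change -0.04 ± 0.19, SE). The deleted exons are not given in the sources used here, so this value does not check the deletion.

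The promoters of the genes with the most Pol II per kb, and those of Srsf11, which has Pol II at separate start sites, are shown because their start site peaks hold most of the counts compared below. Each line gives the 250 bases before a RefSeq start site (GRCm38.p6), 5′ to 3′ on the strand of the gene, and every stretch lies inside a Pol II peak. Capitals mark matches on either strand to the TATA box (TATAAA), the CCAAT box (CCAAT), an ETS site (CCGGAAG) or an NRF1 site (GCATGCGC). GC boxes (GGGCGG) were counted but are left in lower case.
Srsf5, chr12:80945249-80945498, plus strand: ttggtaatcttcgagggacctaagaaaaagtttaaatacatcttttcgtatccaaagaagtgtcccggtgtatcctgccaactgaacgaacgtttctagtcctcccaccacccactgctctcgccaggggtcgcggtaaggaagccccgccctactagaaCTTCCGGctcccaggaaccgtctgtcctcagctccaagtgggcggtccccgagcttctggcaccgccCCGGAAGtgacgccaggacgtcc
Srsf2, chr11:116853095-116853344, minus strand: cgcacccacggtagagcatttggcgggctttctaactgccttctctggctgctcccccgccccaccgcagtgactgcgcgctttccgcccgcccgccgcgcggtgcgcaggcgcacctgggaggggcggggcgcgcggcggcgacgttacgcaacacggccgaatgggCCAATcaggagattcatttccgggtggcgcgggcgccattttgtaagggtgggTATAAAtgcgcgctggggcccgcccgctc
Srsf3, chr17:29032410-29032659, plus strand: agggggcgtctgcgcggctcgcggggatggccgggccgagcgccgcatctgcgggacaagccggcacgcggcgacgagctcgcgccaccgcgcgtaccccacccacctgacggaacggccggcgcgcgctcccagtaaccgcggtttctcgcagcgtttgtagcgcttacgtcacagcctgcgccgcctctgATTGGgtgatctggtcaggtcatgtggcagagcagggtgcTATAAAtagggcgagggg
Srsf7, chr17:80207306-80207555, minus strand: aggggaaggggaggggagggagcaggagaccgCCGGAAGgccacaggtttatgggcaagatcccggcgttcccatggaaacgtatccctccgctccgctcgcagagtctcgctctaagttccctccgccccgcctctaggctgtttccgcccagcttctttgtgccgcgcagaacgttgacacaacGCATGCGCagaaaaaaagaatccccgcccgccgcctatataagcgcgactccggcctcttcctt
Srsf11 outer start, chr3:158036607-158036856, minus strand: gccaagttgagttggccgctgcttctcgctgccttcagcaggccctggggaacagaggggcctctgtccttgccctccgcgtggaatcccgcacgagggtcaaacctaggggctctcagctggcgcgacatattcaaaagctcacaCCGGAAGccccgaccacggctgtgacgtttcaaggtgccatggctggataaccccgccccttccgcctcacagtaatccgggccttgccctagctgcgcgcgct
Srsf11 inner start, chr3:158031749-158031998, minus strand: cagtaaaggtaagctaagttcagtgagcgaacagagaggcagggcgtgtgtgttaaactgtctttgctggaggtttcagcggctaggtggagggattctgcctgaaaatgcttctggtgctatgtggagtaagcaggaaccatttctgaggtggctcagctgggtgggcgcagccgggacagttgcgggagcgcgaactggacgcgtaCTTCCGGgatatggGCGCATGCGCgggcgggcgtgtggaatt

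RefSeq gave 13 start sites for the 10 genes, among them 3 for Srsf4, of which a pair lay 2 bases apart, and motifs were searched from 250 bases before to 50 bases after each start. The TATA box was found at Srsf2 and Srsf3, the CCAAT box at Srsf1, Srsf2, Srsf3 and Srsf10, and the ETS site at Srsf4, Srsf5, Srsf7 and at both Srsf11 starts. Of 32544 such windows over all RefSeq genes, 13.6% held the TATA box, 37.4% the CCAAT box and 8.91% the ETS site. These windows were taken with or without a Pol II peak, so they do not stand for occupied promoters alone. The NRF1 site, in 2.73% of all windows, was found at Srsf7 and at the inner start of Srsf11, where its copies on opposite strands overlap in 1 palindrome. GC boxes were found at all members but Srsf3, against 35.9% of all windows. The E-box (CACGTG, 7.17% of all windows), the YY1 site (AAGATGGCG, 1.41%) and the cAMP response element (TGACGTCA, 1.8%) were found at none. The median number of CpG dinucleotides was 38 in the members' windows and 7 in all windows. A match to these letters is a description of the window and no evidence of binding.

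**Figure D1:**
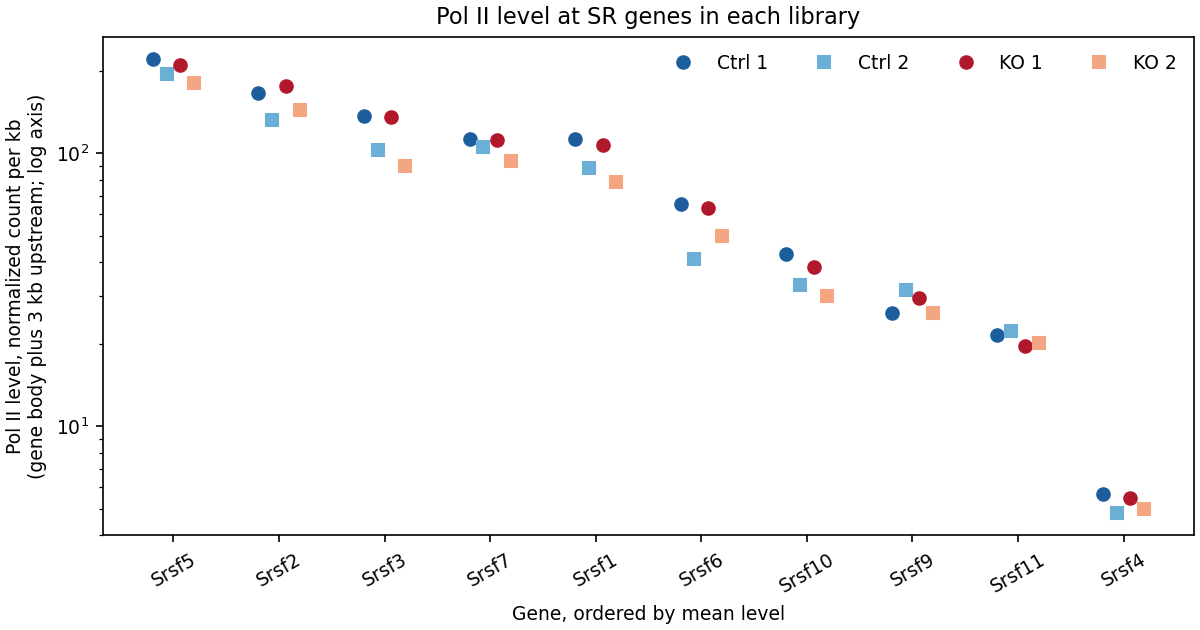
Pol II level of each SR gene in each library, as normalized count per kb of gene body plus 3 kb upstream on a log axis, with circles for libraries numbered 1, squares for those numbered 2, blue for Ctrl and red for KO. Levels ran from 5.23 per kb at Srsf4 to 201.9 per kb at Srsf5, and the Ctrl and KO points overlap at every gene but Srsf11.

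By counts per kb of gene, the SR genes were for the most part densely occupied. Their mean level, in normalized count per kb of gene plus 3 kb upstream, had a median percentile of 89.8 among all genes with a peak, and 7 of 10 members lay above the 75th percentile. Srsf5, an SR protein also known as a growth-responsive gene, was highest, with 220.7 and 195.4 per kb in Ctrl against 210.3 and 181.1 per kb in KO. Srsf4, a long gene whose protein has an extended serine-rich tail, was lowest, with 5.64 and 4.83 per kb in Ctrl against 5.47 and 4.99 per kb in KO. The median over all genes was 11.8 per kb. Between them the mean level fell in the order Srsf2 (154.8 per kb), Srsf3 (116.5), Srsf7 (106.0), Srsf1 (96.9), Srsf6 (54.7), Srsf10 (36.0), Srsf9 (28.25) and Srsf11 (20.95). Srsf5 lay above Srsf2 in all 4 libraries, Srsf1 above Srsf6, Srsf9 above Srsf11 and Srsf11 above Srsf4, with the lowest library of the upper gene above the highest of the lower gene. The neighbouring pairs Srsf2 and Srsf3, Srsf3 and Srsf7, Srsf7 and Srsf1, Srsf6 and Srsf10, and Srsf10 and Srsf9 overlapped over the 4 libraries, although within each library Srsf2 exceeded Srsf3, Srsf6 exceeded Srsf10 and Srsf10 exceeded Srsf9. The members were short, with a median gene length of 6.81 kb against 21.4 kb over all genes, and a median of 50% of the gene lay in peaks against 6.47%. A level per kb of gene spreads the counts of start peaks over the gene's length, so the order depends on length as well as on Pol II. Per kb of peak, Srsf5 was again highest, at 511.4 in its start peak. The outer start peak of Srsf11, shared with Lrrc40, held 398.9 per kb of peak. The start peaks of Srsf4, Srsf9 and Srsf6 held 156.2, 143.2 and 132.1. These levels are given without a test.

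**Figure D2:**
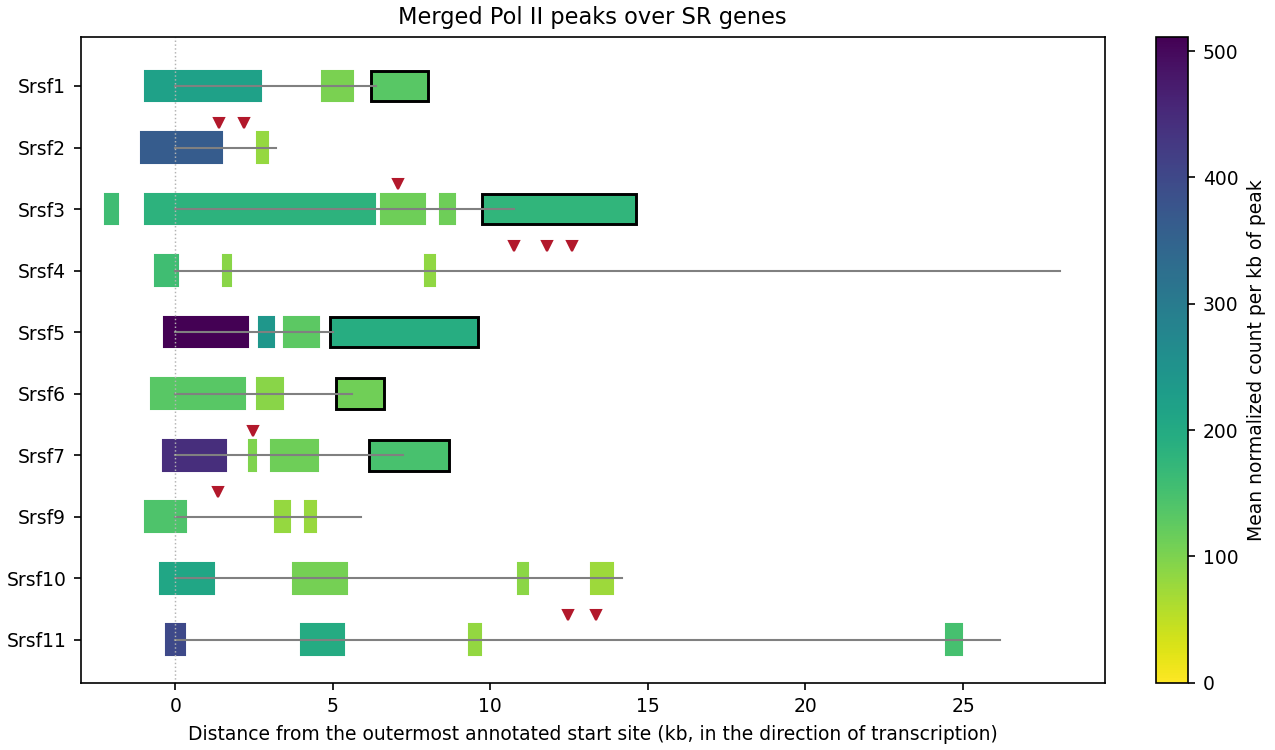
Peaks over each SR gene, drawn to scale as boxes coloured by mean normalized count per kb of peak, with grey lines for the genes, distance from the outermost annotated start site in kb on the x axis, black outlines for peaks that cross the gene's end with their midpoint beyond it, and red triangles for internal non-coding exons of nonsense-mediated decay transcripts. The densest box is the start site peak of Srsf5, at 511.4 per kb, and the widest is that of Srsf3.

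At 9 genes 1 start site peak stood above the other peaks of the gene, and at Srsf11 the counts were split between start sites. Srsf3, a small SR protein that also couples processing to mRNA export, had the widest peak, 7278 bp at chr17:29031676-29038953. Its length was at the 99.5th percentile of promoter peaks. Its normalized counts were 1589 and 1208 in Ctrl against 1516 and 992.9 in KO (log2 fold change -0.15 ± 0.23, SE). The start peak of Srsf5 at chr12:80945160-80947816 was shorter and denser, at 511.4 normalized counts per kb of peak, with 1479 and 1302 in Ctrl against 1430 and 1225 in KO (-0.07 ± 0.19). In both genes the deeper library of each genotype was the higher and the genotypes overlapped. The median widest peak of the members was 2286 bp, against 1101 bp over all genes.

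Some peaks could not be credited to an SR gene alone, since CUT&Tag reads have no strand. The start peak of Srsf2, at chr11:116851616-116854174, and its second peak were also held by Mfsd11 and Mettl23, the peaks of Srsf7 at its start and at chr17:80204735-80204959 were also held by Ttc39d, and the outer start peak of Srsf11 was also held by Lrrc40. Of the 30 peaks 5 were shared in this way, and they included both peaks of Srsf2. Lrrc40 had the shared peak alone, and Ttc39d only the 2 peaks it shared with Srsf7, so their counts cannot be told apart from those of the SR genes.

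Pol II over the SR genes showed no difference between KO and Ctrl that passed the test, in either direction. The counts of a gene's peaks were added up and compared by the DESeq2 Wald test, two-sided, with Benjamini-Hochberg adjustment over all 12876 genes. Of the members 0 of 10 had an adjusted p under 0.05, against 13 genes or 0.101% of all, and 0 of 10 had an unadjusted p under 0.05, against 2.62% of all genes. edgeR also called 0 of 10 by either p, and of all genes 630 at an unadjusted p under 0.05 and 0 after adjustment. The 95% intervals of the 10 fold changes (KO over Ctrl) together ran from 0.688 to 1.46. In bulk nuclei, a change in Pol II per cell and a change in the share of cells that transcribe the gene cannot be told apart.

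**Figure D3:**
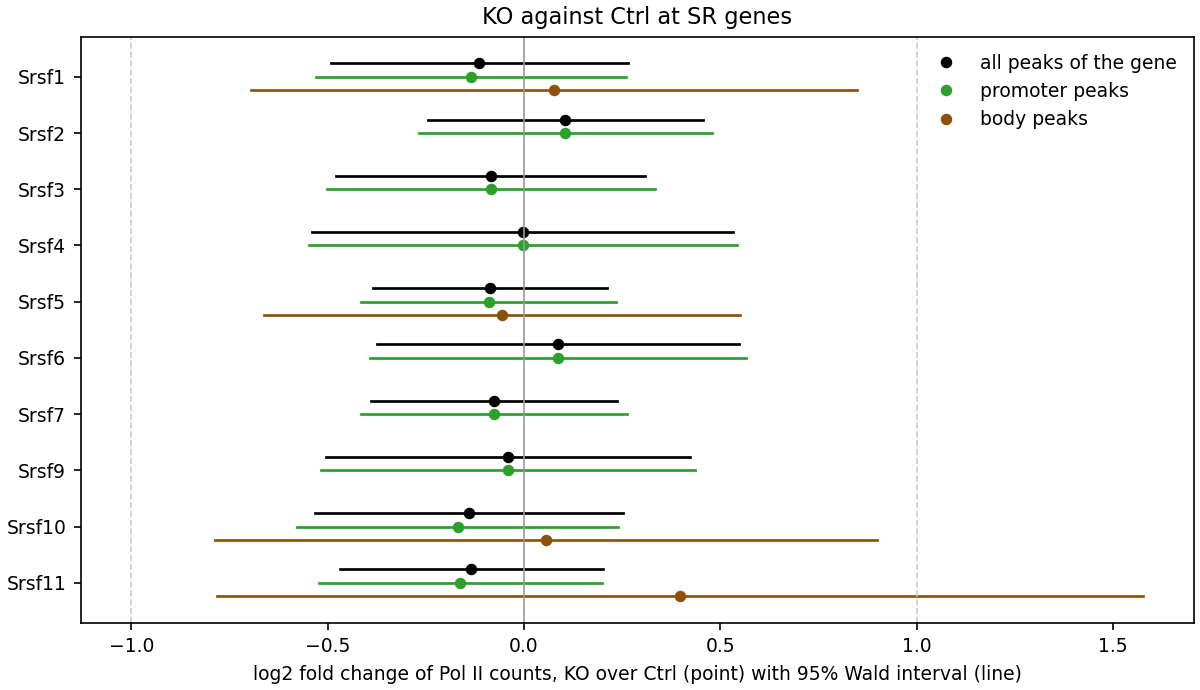
log2 fold change of Pol II counts, KO over Ctrl, for all peaks of each SR gene (black), its promoter peaks (green) and, at 4 genes, its body peaks (brown), with the 95% interval as a line and dashed lines at -1 and 1. Every interval includes 0, and the body intervals are the widest, that of Srsf11 reaching 1.58.

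Srsf1, Srsf2 and Srsf3 are founding members of the family. Srsf1, a general activator of exon inclusion and a regulator of constitutive splicing, had 1062 and 830.8 normalized counts in Ctrl and 1005 and 739.2 in KO (log2 fold change -0.11 ± 0.19, SE). Srsf2, which stays in the nucleus and also acts in the release of paused Pol II, had 1027 and 821.2 in Ctrl against 1094 and 892.4 in KO (0.11 ± 0.18). Srsf3 had 1888 and 1412 in Ctrl against 1870 and 1235 in KO (-0.08 ± 0.20). At each of the 3 genes the library numbered 1 was the higher in both genotypes, and the spread within a genotype exceeded the difference between genotypes. The unadjusted DESeq2 p-values of the 10 members lay between 0.434 and 0.991, and the adjusted p was 1.00 for all of them.

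Srsf7, like Srsf3 a shuttling protein that links splicing to mRNA export, had 1152 and 1076 normalized counts in Ctrl and 1146 and 962.3 in KO (log2 fold change -0.08 ± 0.16). KO 1 fell inside the Ctrl range and KO 2 below it. Srsf5 had 1767 and 1564 in Ctrl against 1683 and 1449 in KO (-0.09 ± 0.15), the narrowest interval of the family, with fold changes from 0.766 to 1.16. Srsf6, a regulator of alternative exons, had 559.2 and 352.7 in Ctrl against 542.4 and 427.5 in KO (0.09 ± 0.24). Both KO libraries lay between the 2 Ctrl libraries. Srsf4 had 175.4 and 150.2 in Ctrl against 169.9 and 155.0 in KO (-0.0031 ± 0.27), again with both KO libraries inside the Ctrl range.

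Srsf9, a small member that can antagonize other splicing regulators, had 231.5 and 281.1 normalized counts in Ctrl and 262.0 and 231.6 in KO (log2 fold change -0.04 ± 0.24). Srsf10, which becomes a splicing repressor when dephosphorylated, had 731.7 and 566.3 in Ctrl against 658.9 and 516.1 in KO (-0.14 ± 0.20), the lowest fold change of the family. Srsf11, a nuclear protein with a less typical domain layout, had 628.2 and 650.3 in Ctrl against 576.3 and 589.3 in KO (-0.13 ± 0.17). Srsf11 was the 1 member of 10 whose genotypes did not overlap, with KO lower, a pattern that 19.0% of all genes showed, while 0 of 10 were higher in KO without overlap, against 15.2% of all genes. In all, 8 members had a log2 fold change below 0 and 2 above, with a median of -0.08, beside 54.5% of all genes below 0 and a median of -0.02.

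Within a genotype the members moved with the library number. At 8 of 10 members the library numbered 2 was lower than the library numbered 1 in both genotypes, as it was at 39.3% of all genes. The median log2 ratio of library 2 to library 1 was -0.27 in Ctrl and -0.27 in KO over the members, and -0.05 and -0.03 over all genes. The members' ratios reached -0.66 at Srsf6 in Ctrl and -0.60 at Srsf3 in KO. Srsf9 in Ctrl (0.28) and Srsf11 in both genotypes (0.05 and 0.03) were the exceptions. The libraries numbered 2 were also the shallower, and the part of depth in this was not tested. Between libraries of the same number, KO was below Ctrl in both pairs at 6 members, above it in both at Srsf2 alone, and mixed at 3, while 35.3% and 27.0% of all genes were below or above in both.

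**Figure D4:**
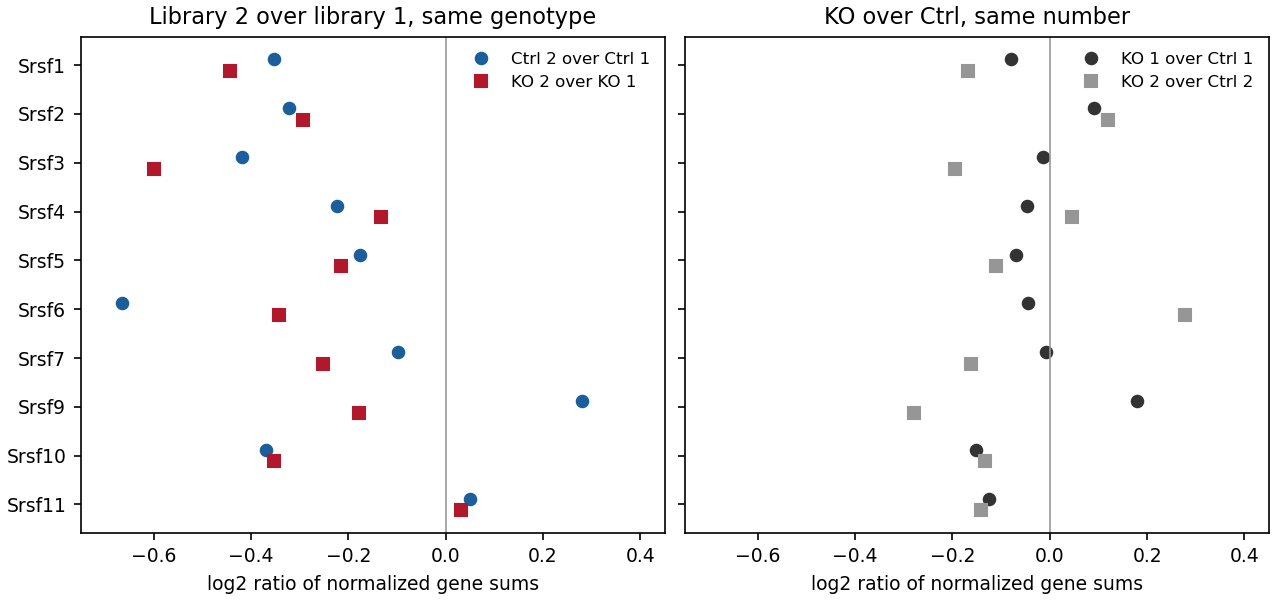
log2 ratios of normalized gene sums between libraries for each SR gene, on the left library 2 over library 1 within Ctrl (blue circles) and KO (red squares), and on the right KO over Ctrl within library number 1 (dark circles) and 2 (grey squares). On the left most points lie below 0, with medians of -0.27 in both genotypes, and on the right the medians are -0.04 and -0.14.

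Promoter peaks and body peaks were then compared separately, a promoter peak being one with its midpoint within 3 kb of any annotated start of the gene. Since SR genes are short and have many annotated starts, 25 of the 30 peaks were promoter peaks by this definition. At Srsf2, Srsf3, Srsf4, Srsf6, Srsf7 and Srsf9 every peak was a promoter peak, so their promoter sums repeat the gene sums. Promoter sums gave log2 fold changes from -0.17 (Srsf10) to 0.11 (Srsf2), 8 below 0 and 2 above, with a median of -0.08 against -0.03 over 11951 genes. By promoter sums 0 of 10 members had an adjusted p under 0.05, against 0.0418% of all, and 0 of 10 an unadjusted p under 0.05, against 1.91%. Srsf11 had promoter sums of 597.3 and 629.7 in Ctrl against 547.2 and 548.4 in KO (-0.16 ± 0.18).

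Body peaks remained at 4 members. Srsf1 had body counts of 111.4 and 90.9 in Ctrl against 142.6 and 66.4 in KO, with a log2 fold change of 0.08 ± 0.39. Srsf5 had 171.8 and 119.9 in Ctrl against 151.5 and 129.4 in KO (-0.06 ± 0.31). In both genes the KO range overlapped the Ctrl range. Srsf10 had 102.1 and 51.0 in Ctrl against 93.3 and 66.4 in KO (0.06 ± 0.43), and Srsf11 had 30.9 and 20.7 in Ctrl against 29.1 and 40.9 in KO (0.40 ± 0.60). The counts of Srsf11 were low and its interval ran from -0.78 to 1.58. By body sums 0 of 4 members passed at an adjusted p under 0.05, against 0.0693% of 5770 genes, or at an unadjusted p, against 3.36%.

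Whether body counts moved apart from promoter counts of the same gene was tested as an interaction. The log2 change of body over promoter was 0.15 ± 0.36 at Srsf1, 0.04 ± 0.28 at Srsf5, 0.27 ± 0.41 at Srsf10 and 0.52 ± 0.46 at Srsf11. The lowest p was 0.26, at Srsf11, where the log2 ratio of body to promoter counts was -4.26 and -4.88 in Ctrl and -4.22 and -3.72 in KO. The adjusted p fell under 0.05 at 0 of 4 members, against 0.0206% of 4845 genes, and the unadjusted p at 0 of 4, against 1.22%.

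Because few body peaks were left, the regions were also split at 3 kb from the outermost start alone, a definition chosen after the values had been seen. Then 9 members had body peaks, in 15 of the 30 peaks, and all but Srsf2 could be compared in both regions. Body fold changes ran from -0.46 (Srsf6) to 0.20 (Srsf3) on the log2 scale, 6 below 0 and 3 above, with a median of -0.06 against 0.01 over 7579 genes. Srsf6 had 102.8 and 71.7 in Ctrl against 74.3 and 51.1 in KO over its body (-0.46 ± 0.41, unadjusted DESeq2 p-value of 0.257), and 456.4 and 281.1 against 468.2 and 376.4 over its promoter (0.19 ± 0.26). Body counts of Srsf6 in KO 1 lay within the Ctrl range and those in KO 2 below it. Its change of body over promoter, -0.68 ± 0.42, had the lowest p of the 9 genes, 0.108. Of these comparisons 0 had an unadjusted p under 0.05, and the share over all genes was not counted for this split. By the first definition that share was 1.91% for promoter sums, 3.36% for body sums and 1.22% for body over promoter. At shares of that size, 0 among so few comparisons says little about the members.

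No single peak of the family passed the test. Of the 30 peaks 0 had an adjusted p under 0.05, where the share over all 56615 peaks was 0.0%, and 0 had an unadjusted p under 0.05, against 1.53% of all peaks, and edgeR also called 0 by either p. KO was higher in 13 and lower in 17 of them, with log2 fold changes from -0.53 to 0.71 and a median of -0.06 against -0.01 over all peaks. The lowest p, 0.234, belonged to a 368 bp peak of Srsf9 at chr5:115331287-115331654 with 24.4 and 19.3 normalized counts in Ctrl and 42.2 and 28.9 in KO. Among the 22 peaks with a mean of at least 50 normalized counts the range was -0.46 to 0.44.

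At the remaining start site peaks the genotypes overlapped. The peak of Srsf1 at chr11:88046413-88050079 had 950.3 and 739.9 in Ctrl against 862.6 and 672.7 in KO (log2 fold change -0.14 ± 0.22). That of Srsf2 had 993.4 and 792.2 in Ctrl against 1054 and 882.2 in KO (0.12 ± 0.21), and that of Srsf7 at chr17:80205687-80207698 had 953.1 and 895.6 in Ctrl against 950.6 and 780.0 in KO (-0.09 ± 0.20). In these the library numbered 1 was higher in both genotypes. The peak of Srsf6 at chr2:162930743-162933736 had 456.4 and 281.1 in Ctrl against 468.2 and 376.4 in KO (0.19 ± 0.27), and that of Srsf10 at chr4:135855255-135856982 had 409.0 and 341.7 in Ctrl against 377.3 and 310.0 in KO (-0.12 ± 0.24). The lower peaks of Srsf9 at chr5:115326223-115327512 (162.4 and 214.9 in Ctrl, 179.4 and 182.2 in KO) and of Srsf4 at chr4:131872969-131873695 (125.1 and 99.2 in Ctrl, 129.5 and 100.5 in KO) changed by -0.05 ± 0.28 and 0.04 ± 0.34.

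Srsf11, with 19 annotated transcripts, had Pol II at separate starts. The outer peak, at chr3:158036343-158036932 and shared with Lrrc40, had 250.9 and 248.0 normalized counts in Ctrl and 197.2 and 245.3 in KO (log2 fold change -0.19 ± 0.26). The inner peak, at chr3:158031289-158032633, had 296.1 and 281.1 in Ctrl against 289.3 and 201.0 in KO (-0.22 ± 0.26). KO 1 was the low library at the outer start and KO 2 at the inner one. Another peak, of 518 bp and wholly exonic, lay 24721 bp into the gene and 602 bp from an annotated start, with 50.3 and 100.6 in Ctrl against 60.6 and 102.2 in KO. There the library numbered 2 was the higher in both genotypes.

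Internal exons without coding sequence that appear in annotated nonsense-mediated decay transcripts were located next, since exons of this kind can serve SR genes to limit their own expression. GENCODE gave 10 such exons in 6 members, and 3 of them overlapped a peak, in Srsf2, Srsf3 and Srsf7. Over all protein-coding genes with a peak 360 of 2495 such exons, 14.4%, overlapped a peak. The splice sites of the Srsf3 and Srsf7 exons, which lay in peaks away from the start peak, are shown with intron bases in lower case and exon bases in capitals (GRCm38.p6, strand of the gene).
Srsf3 exon chr17:29039454-29039909, 3′ splice site: aaaaatgaaccccgttacagAGTCACCATC
Srsf3 exon chr17:29039454-29039909, 5′ splice site: CCCAAAACTAgtaagtttttcctgcttata
Srsf7 exon chr17:80204622-80205081, 3′ splice site: acctggtcaaaacctttcagGTTTCTTCGT
Srsf7 exon chr17:80204622-80205081, 5′ splice site: AACTTGCAAGgtttattttaaatacacatt

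The Srsf3 exon of 456 bp lay wholly in a peak of 1384 bp at chr17:29039171-29040554, which held 178.3 and 118.5 normalized counts in Ctrl and 191.3 and 136.3 in KO (log2 fold change 0.15 ± 0.32). KO exceeded Ctrl within each library number, and the genotypes overlapped. The Srsf7 exon of 460 bp held a peak of 225 bp, with 22.3 and 30.3 in Ctrl against 25.6 and 10.2 in KO (-0.47 ± 0.70), where raw counts were from 6 to 43 per library and allow no firm statement. This peak is also counted for Ttc39d. The Srsf2 exon of 104 bp at chr11:116851648-116851751 lay inside the start peak and could not be read apart from it. The other 7 exons, in Srsf2, Srsf4, Srsf9 and Srsf11, lay outside peaks. Annotated starts lie 168 bp from the midpoint of the Srsf3 exon peak and 98 bp from that of the Srsf7 exon peak, so Pol II at these starts and at the exons cannot be told apart.

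Pol II also gathered at the far ends of several members. Peaks that crossed the annotated gene end with their midpoint beyond it, and so stayed outside the sums above, were found at 5 of 10 members, Srsf1, Srsf3, Srsf5, Srsf6 and Srsf7, against 5.31% of all 12876 genes. All 5 had midpoints in no gene, a case met at 2.16% of all genes. The set was looked up after the other values had been seen and carries no test against other genes. Of these members Srsf6 had the lowest level, 54.7 per kb of gene plus 3 kb, against a median of 11.8 per kb over all genes. Whether other genes of like level have end peaks as often was not tested. The Srsf5 end peak, at chr12:80950411-80955099, reached 4592 bp beyond the gene and held 1162 and 897.0 normalized counts in Ctrl and 920.9 and 619.9 in KO (log2 fold change -0.41 ± 0.23, unadjusted DESeq2 p-value of 0.0776). KO was lower within each library number, but KO 1 exceeded Ctrl 2. This peak had an unadjusted p under 0.05 in some alternatives, with p-values of 0.0141 by edgeR, 0.00268 with the library number as a replicate block and 0.0126 without KO 1, and without 1 library its log2 fold change ranged from -0.73 to -0.16. Its adjusted p over all peaks was 0.367 with the block and 1.00 by edgeR and without KO 1. The Srsf6 end peak, at chr2:162936625-162938137, held 186.2 and 190.1 in Ctrl against 152.1 and 148.2 in KO (-0.32 ± 0.28), without overlap, as did 16.1% of all peaks with KO lower. The end peaks of Srsf1 (-0.05 ± 0.33), Srsf3 (-0.07 ± 0.19) and Srsf7 (-0.03 ± 0.22) differed less and overlapped. With every overlapping peak included, the Srsf5 gene sum changed by -0.20 on the log2 scale and that of Srsf6 by -0.02.

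Genes that work with the SR proteins were described from lists by the same gene sums. By DESeq2, 0 genes of any list had an unadjusted p under 0.05, against 2.62% of all genes, or an adjusted one, against 0.101%. By edgeR 0 passed as well, against 630 of all 12876 genes unadjusted and 0 adjusted. At these shares, 0 in lists of this size says little about the lists. Of the SR protein kinases and import factors, which phosphorylate the repeat tail and carry the proteins into the nucleus, all 9 had a peak, 5 above and 4 below 0, with a median log2 fold change of 0.05. Tnpo3, the import receptor for SR proteins, had the largest change, with 254.5 and 221.8 normalized counts in Ctrl and 214.5 and 204.4 in KO (-0.19 ± 0.24). Of the SR-related proteins 13 of 14 had a peak (not Srsf12), 3 above and 10 below 0, with a median of -0.04. Tra2a, which activates exons through purine-rich enhancers, had 2141 and 1578 in Ctrl against 1694 and 1245 in KO (-0.34 ± 0.19, unadjusted DESeq2 p-value of 0.0735), with KO lower within each library number and the genotypes overlapping. The medians stand beside -0.02 over all genes.

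The hnRNPs, RNA-binding proteins that often act against SR proteins, had peaks at 25 of 25 genes, 9 above and 16 below 0, with a median of -0.03. Hnrnph2 changed most, with 570.7 and 479.5 in Ctrl against 475.9 and 401.9 in KO (-0.25 ± 0.20). Of the factors of the U1 and U2 particles and their splice site partners 19 of 20 had a peak (not Snrpb2), 11 above and 8 below 0, with a median of 0.03. Luc7l2, a U1-associated protein, had 1538 and 1396 in Ctrl against 1341 and 1141 in KO (-0.24 ± 0.15). In both genes, as in Tnpo3, KO lay below Ctrl without overlap, a pattern of 19.0% of all genes (15.2% in the other direction). In these lists KO was without overlap lower at 1 and higher at 3 genes among the kinases and import factors, and the same among the hnRNPs. It was lower at 2 and higher at 5 among the U1 and U2 factors. Among the SR-related proteins it was lower at 0 and higher at 0, and among the nonsense-mediated decay factors lower at 1 and higher at 0. The nonsense-mediated decay factors had peaks at all 10 genes, 4 above and 6 below 0, with a median of -0.08, and Upf3a, a modulator of that decay, had 577.2 and 406.5 in Ctrl against 446.8 and 299.8 in KO (-0.39 ± 0.24, unadjusted DESeq2 p-value of 0.106).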

How the data were processed

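Pol II CUT&Tag was performed on splenic Treg nuclei with 2 Ctrl and 2 KO libraries, and 1 IgG library is not analysed here. Per the methods and processing notes, the authors checked 150 bp paired reads with FastQC, mapped them to mm10 with Bowtie2, kept unique reads, removed duplicates, called peaks with MACS2 against IgG at p 0.01, merged peaks with bedtools and tested them with DESeq2; versions are not given in the sources used here. The deposited table by the authors holds raw counts per merged peak. 0 columns lacked a sample. Peaks were chosen on the same libraries that are compared, and counting error is larger in the shallower libraries.

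Peaks were assigned with GENCODE vM21 (GRCm38): to protein-coding genes, or to lncRNA genes where no protein-coding gene held the midpoint. DESeq2 1.42.0 (R 4.3.3) was fitted to all genes or peaks with genotype alone and the size factors of the peak table; body over promoter was a region by genotype term in a model with library. Scripts were tested on simulated data. Alternatives were edgeR 4.0.16, total-count scaling, a mean count of at least 10, unshared peaks, any overlap, a 1 kb promoter window, a replicate block and leaving out each library; size factors of the gene sums and the outermost start alone were added after seeing the data, as were the peaks at gene ends. The members and lists were chosen with earlier results of these data known. Named were all 10 members, the highest peak of each, and peaks and list genes with an unadjusted p under 0.05 (0 were found). Otherwise the gene with the largest change at a mean of 50 or more was named in each list of splicing or decay genes. Other peaks, at separate starts, decay exons and gene ends, were named after their values were seen. Promoter windows came from RefSeq, and 11 of 11 compared with the genome sequence were equal to it. The rest of the B cell marker list is not reported here.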

Additional observations from a re-analysis of the deposited data

How the results depend on the processing

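No member and none of its 30 peaks passed an unadjusted p of 0.05 under any alternative run for it. Of the 5 peaks at gene ends that of Srsf5 did, by edgeR, with the replicate block and without KO 1. The main fit gave an unadjusted p under 0.05 at 1.53% of all peaks, and this share was not counted in those settings. After adjustment edgeR called 27 of all peaks and the replicate block 25, against 0 in the main fit. Among alternatives that kept all 4 libraries, the lowest p for gene sums was 0.195, at Srsf5 with any overlap (DESeq2 Wald test). For promoter sums it was 0.294, at Srsf10 with the replicate block (DESeq2 Wald test), and for single peaks 0.15 (edgeR). With the outermost start, the lowest DESeq2 Wald p was 0.257 for body sums and 0.108 for body over promoter, both at Srsf6. Signs, in contrast, depended on single libraries at nearly all members. A fit without 1 library keeps a single library in that genotype, which is assumed to vary like the others. Leaving out each library in turn changed the sign at 9 of 10 gene sums, all but Srsf11, with log2 ranges for Srsf1 (-0.36 to 0.084), Srsf2 (-0.053 to 0.28), Srsf3 (-0.42 to 0.18), Srsf4 (-0.11 to 0.12), Srsf5 (-0.20 to 0.014), Srsf6 (-0.20 to 0.47), Srsf7 (-0.21 to 0.040), Srsf9 (-0.18 to 0.098) and Srsf10 (-0.33 to 0.060). Promoter sums ranged over Srsf1 (-0.33 to 0.059), Srsf2 (-0.053 to 0.28), Srsf3 (-0.42 to 0.18), Srsf4 (-0.11 to 0.12), Srsf5 (-0.20 to 0.011), Srsf6 (-0.20 to 0.47), Srsf7 (-0.21 to 0.040) and Srsf9 (-0.18 to 0.098). Body sums ranged over Srsf1 (-0.61 to 0.49), Srsf5 (-0.28 to 0.24) and Srsf10 (-0.34 to 0.66), with the median of the members from -0.20 to 0.45, and body over promoter over Srsf1 (-0.28 to 0.46), Srsf5 (-0.13 to 0.25) and Srsf10 (-0.046 to 0.67). Of the single peaks named by their start position, the ranges were Srsf1 peak at 88046413 (-0.33 to 0.058), Srsf2 peak at 116851616 (-0.034 to 0.29), Srsf3 peak at 29031676 (-0.50 to 0.11), Srsf4 peak at 131872969 (-0.16 to 0.22), Srsf5 peak at 80945160 (-0.18 to 0.040), Srsf6 peak at 162930743 (-0.11 to 0.59), Srsf7 peak at 80205687 (-0.25 to 0.040), Srsf9 peak at 115326223 (-0.25 to 0.15), Srsf10 peak at 135855255 (-0.28 to 0.014), Srsf11 peak at 158031289 (-0.52 to 0.0025), Srsf3 peak at 29039171 (-0.13 to 0.48) and Srsf11 peak at 158011660 (-0.33 to 0.67). Where the sign held, 1 library still moved the value by more than 1.5 times for the promoter sum of Srsf10 (-0.35 to -0.015), the body sum of Srsf11 (0.16 to 0.74), its body over promoter (0.26 to 0.91), its outer peak (-0.34 to -0.025) and the Srsf7 exon peak (-1.36 to -0.031). The median of the members ranged from -0.17 to 0.069 for gene sums and -0.18 to 0.038 for promoter sums. Without 1 library the number of features called over all genes or peaks was 0 to 3 for gene sums (13 with all libraries), 0 to 3 for promoter sums (5), 0 to 3 for body sums (4), 0 to 1 for body over promoter (1) and 0 to 5 for single peaks (0).

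Other alternatives changed signs only where the log2 fold change was close to 0 or the set of peaks changed. For Srsf4 the gene sum was 0.017 with edgeR, 0.015 with size factors of the gene sums and 0.026 with total counts, and the promoter sum was 0.023 with edgeR, 0.026 with total counts, 0.067 with the outermost start and 0.043 with a 1 kb window. The gene sum of Srsf6 was -0.020 with any overlap and that of Srsf7 was 0.057 with unshared peaks. With a 1 kb window the promoter sum of Srsf3 was 0.15, the body sum of Srsf10 -0.16, and body over promoter -0.032 for Srsf10 and -0.14 for Srsf5. At Srsf3 this window dropped the start peak, whose midpoint lay 1065 bp from an annotated start. Only the exon peak at chr17:29039171-29040554 stayed in that sum, so the value does not describe the main promoter. With the outermost start the body sum was -0.16 for Srsf10 and -0.10 for Srsf11, and body over promoter -0.032 for Srsf10. These counts of called features over all genes or peaks also moved. edgeR called 0 gene sums, 0 promoter sums, 0 body sums and 27 peaks, unshared peaks gave 6 gene sums, and the 1 kb window gave 3 promoter sums, 2 body sums and 0 for body over promoter. The cause of these changes was not tested beyond what the alternatives themselves changed.

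With the library number as a replicate block, 121 gene sums, 49 promoter sums, 69 body sums, 2 for body over promoter and 25 peaks were called over all features, with 0 members among them. The block left the median of the members at -0.08 and turned the body sum of Srsf1 to -0.0074. Deviations from the group means correlated at 0.234 between same-numbered libraries across 56611 peaks, but the labels do not say that a number marks a shared batch and there were only 2 numbers. Depth limits the low peaks most, where the libraries numbered 2 hold few reads.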

Other observations

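Internal non-coding exons of nonsense-mediated decay transcripts were also counted in the lists of splicing genes. Such an exon overlapped a Pol II peak at Hnrnpa1, Hnrnpa2b1, Hnrnpl and Hnrnpu, 4 of 10 exons of the hnRNP list, at Srrm2 and Tra2b, 2 of 12 exons of the SR-related list, and at Snrnp70 and U2af1, 2 of 10 exons of the U1 and U2 list. None of the 9 such exons of the SR kinases and import factors lay in a peak, and the nonsense-mediated decay factors had 0 such exons. Among all protein-coding genes with a peak, the exons in peaks fell in 238 of 1348 genes. These shares are descriptions without a test.

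Among the peaks of the family, the 1 most uneven within both genotypes was a 474 bp peak of Srsf3 at chr17:29041030-29041503. It held 74.0 normalized counts in Ctrl 1 and 20.7 in Ctrl 2, and 95.7 in KO 1 and 23.8 in KO 2. Raw counts were 103, 15, 161 and 14 in the same order, and the log2 fold change between genotypes was 0.34 with an SE of 1.20.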
